A study of Mus musculus with 6 samples.

Results

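The cadherin and protocadherin genes of the neocortex were taken as the rows of the deposited count table whose symbol is Cdh followed by a number, or begins with Pcdh. The rule found 94 of 23420 genes: 23 numbered cadherins, 12 protocadherins that stand alone in the genome, and 59 rows of the clustered protocadherins, of which 15 belong to the alpha, 22 to the beta and 22 to the gamma cluster. The rule used names only and no measured value. Whole RNA of mouse neocortex was sequenced at embryonic day 18.5, in 3 libraries labelled Tshz3 mutant and 3 labelled wild type. Each library was an independent preparation of cortices from 3 to 4 embryos drawn from multiple litters, so 1 value is a pool average. Tshz3 encodes a nuclear protein with zinc fingers, active in cortical projection neurons. The sources used here do not give the allele, the strain or the sex of the embryos. The Tshz3 transcript itself was not lower under the mutant label (log2 fold change 0.17, SE 0.07, edgeR adjusted p = 0.669, or 0.0525 with the block described below), and all 3 mutant-labelled libraries lay above the wild-type ones. Its counts do not show whether the mutant transcript is functional. The libraries are therefore called mutant-labelled below, and every direction rests on that label.

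Cadherins are calcium-dependent adhesion molecules whose extracellular repeats bind partners on neighbouring cells. Classical cadherins link these contacts through catenins to actin, and neurons with different cadherin sets sort into layers, nuclei and synaptic fields. Clustered protocadherins are made from arrays of variable first exons, each with its own promoter, and in the alpha and gamma clusters the chosen first exon is spliced to constant exons shared by the whole cluster. Single neurons use a few of the possible isoforms, which gives a surface identity used for self-avoidance of dendrites and axons. Protocadherins outside the clusters act in axon growth, sorting and synapse formation.

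Because the shared constant exons belong to every gene of a cluster, a read there cannot be given to 1 gene, and if such reads were dropped, the values rest on the variable exons. A median of 53.5% of the annotated exon length of alpha genes and 44.7% of that of gamma genes was shared with another member. The table also has a row named Pcdha4-g, which RefSeq lists as Gm37013, a read-through gene of 889.2 kb that runs from Pcdha4 into the gamma cluster. That row held no read in any library, and Pcdha4 itself held 1 read in all 6 libraries together. The low count of Pcdha4 thus cannot be told apart from loss of reads to this overlap. The rule for counting overlapping genes was not found in the labels.

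Of the 94 members, 86 had enough reads to be tested. The 8 others were Cdh19, Cdh26, Pcdha1, Pcdha4, Pcdha4-g, Pcdha8, Pcdhb1 and Pcdhgb8. Pcdha1 had the most reads among them in any library, 16. None of the 8 entered the main edgeR fits described below, unpaired or with the block, which left out genes with few reads. No value of theirs is compared between genotypes here. Library totals ran from 18569383 to 24147810 counts, and members held 43495 to 56563 counts per library. Markers of neocortical projection neurons summed to between 2301 and 2582 CPM, the usual library-scaled count, here also adjusted for library composition, in every library, with all 8 tested, against 7.51 to 11.6 CPM for 3 thalamus markers. The 9 striatum markers summed to between 153 and 198 CPM. Markers of 2 neighbouring tissues differed widely between libraries of the same genotype. The 9 meninges markers summed to 261, 93.8 and 63.2 CPM in mutant-labelled libraries 1, 2 and 3 and to 325, 217 and 50.3 CPM in wild-type libraries 1, 2 and 3. The 5 choroid plexus markers summed to 810, 190 and 149 CPM in mutant-labelled libraries and to 826, 121 and 228 CPM in wild-type libraries. Ttr made up most of the choroid plexus sum, and none of these 14 markers was at 0 in any library. In such bulk samples, fewer cells of a type and less RNA per cell cannot be told apart.

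The comparison asks which members differ in level between mutant-labelled and wild-type neocortex. Without pairing, none of the 86 tested members passed at an adjusted p of 0.05 (edgeR, quasi-likelihood), where 0.0752% of all 14618 tested genes passed. At an unadjusted p under 0.05 there were 3 members, Pcdh20, Pcdh15 and Cdh11, where 7.09% of all genes reached that level. DESeq2 called 1 member, Pcdh20, beside 0.641% of the genes it tested. Libraries that carry the same number in both genotypes varied together, and a fit with the number as a block called 4 members, which is 4.65% of those tested beside 3.46% of all genes. With that block Pcdh20, Cdh4 and Cdh11 rose, where 1.97% of all genes did, and Pcdh9 fell, where 1.49% did. All 4 lost the call when pair 1 or pair 3 was left out. Over all genes, the block called 288 higher and 218 lower, against 141 and 154 without pair 1 and 35 and 27 without pair 3. The 3 libraries of one genotype lay wholly beyond those of the other in 5 members, or 5.81%, beside 13.5% of all genes. Pcdh20 and Pcdh12 were the higher ones, where 7.42% of all genes were, and Pcdh15, Cdh23 and Pcdhga4 the lower ones, where 6.09% were.

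**Figure D1:**
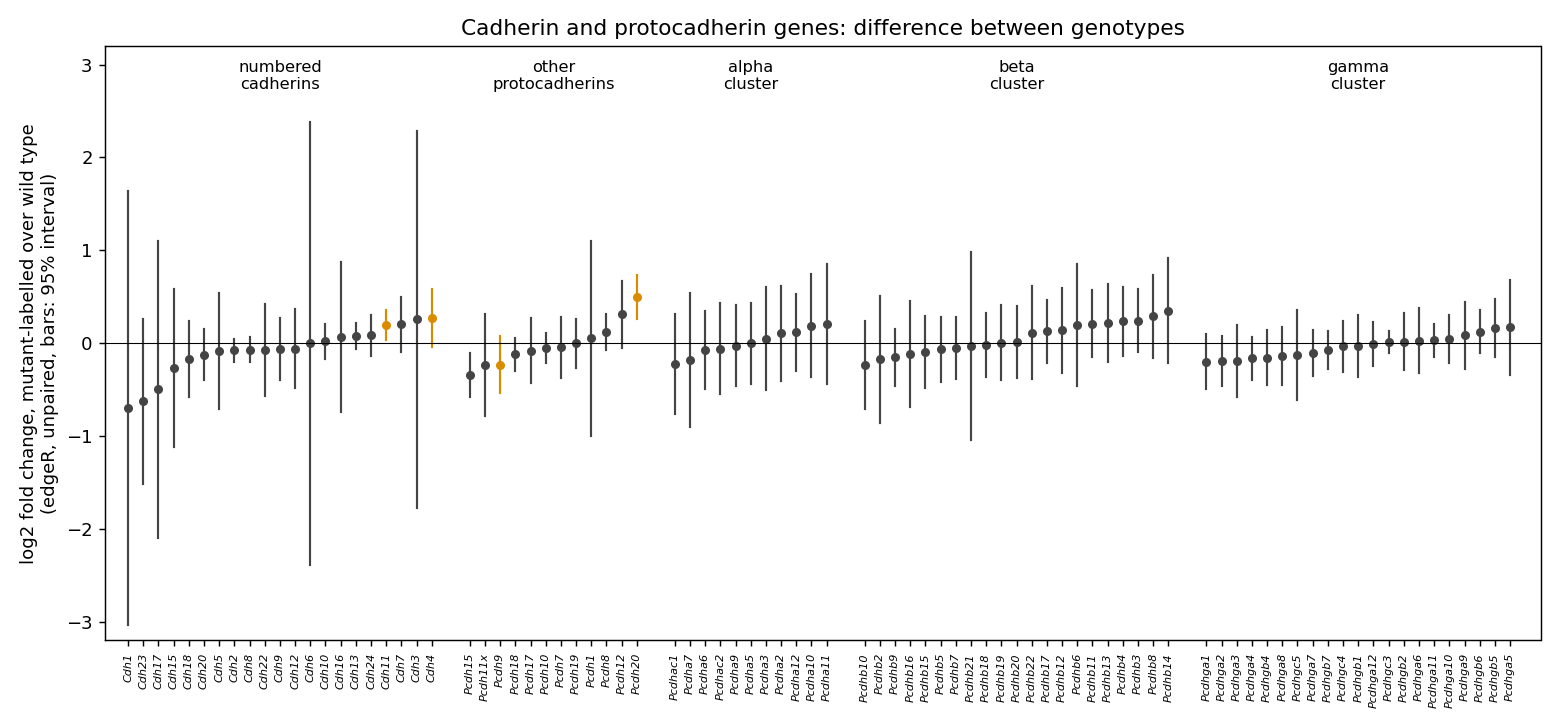
Log2 fold change of each of the 86 tested members, mutant-labelled over wild type, as a point, sorted within each group. Bars are approximate 95% intervals derived from the unpaired edgeR test. The 4 members in orange passed with the library number as a block, and the bars of Cdh1, Cdh3 and Cdh6 are the widest.

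Most differences were small. The median log2 fold change of the members was -0.02, beside -0.01 over all tested genes, and 39 members had a positive and 47 a negative value. Each mutant-labelled library was above the wild-type library of its number in 18 members and below it in 18, beside 19.3% and 19.8% of all genes. In 64 of the 86 the log2 fold change was within 0.2 of zero, beside 11588 of all 14618 tested genes. The 95% interval lay wholly within 0.5 of zero on the log2 scale for 44 members, or 51.2%, beside 66.9% of all genes. For the remaining members a change of that size, in at least 1 direction, lay within the interval.

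Pcdh20 had the largest difference among members that passed any test. It encodes a protocadherin of the delta type and lies on chromosome 14 from 88464743 to 88471396 (GRCm38). Its level was 18.4, 19.8 and 17.8 CPM in mutant-labelled libraries 1, 2 and 3, and 11.8, 14.0 and 13.9 CPM in wild-type libraries 1, 2 and 3. Every mutant-labelled library lay above every wild-type library. The means were 18.7 ± 1.06 and 13.2 ± 1.24 CPM (SD, n = 3 each), a 1.41-fold difference with a log2 fold change of 0.50 (SE 0.10, 95% interval 0.26 to 0.74). The edgeR adjusted p was 0.236 without pairing and 0.00805 with the block, and DESeq2 gave 0.0469. Leaving out any 1 library kept the unpaired log2 fold change between 0.42 and 0.54. The mutant-labelled library was the higher one in each pair, by 0.62, 0.49 and 0.35 on the log2 scale.

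Pcdh9, the next protocadherin on the same chromosome, 4.54 Mb further on, had a difference of the other sign. Pcdh9 spans 93013410 to 93890679 and encodes a protocadherin of neurons. In the mutant-labelled libraries it stood at 40.8, 55.7 and 52.0 CPM, and in wild type at 50.9, 61.0 and 62.5 CPM. The groups overlapped, since mutant-labelled library 2 lay above wild-type library 1, but each mutant-labelled library lay below the wild-type library of its number. The log2 fold change was -0.23 without pairing (SE 0.13, edgeR adjusted p = 0.81) and -0.24 with the block (SE 0.06, adjusted p = 0.0409).

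Pcdh20 and Pcdh9 differ in the base composition of the 250 bases before their most upstream RefSeq start sites. These bases are shown because, of the 4 members called with the block, only these 2 had a RefSeq entry. Pcdh17, 3.93 Mb to the other side of Pcdh20, lies nearer to it than Pcdh9 and passed in neither fit. Whether base composition has a part in the values was not tested. Both sequences are the minus strand of GRCm38.p6 from RefSeq, where 22 of the 94 members had an entry, and capitals mark each CG dinucleotide. The first lies at chr14:88471397-88471646 and the second at chr14:93890680-93890929.
Pcdh20: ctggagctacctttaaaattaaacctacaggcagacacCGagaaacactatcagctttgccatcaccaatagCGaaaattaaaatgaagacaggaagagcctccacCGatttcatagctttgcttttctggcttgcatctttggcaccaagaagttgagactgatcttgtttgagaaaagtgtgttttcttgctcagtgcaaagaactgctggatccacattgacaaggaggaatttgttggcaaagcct
Pcdh9: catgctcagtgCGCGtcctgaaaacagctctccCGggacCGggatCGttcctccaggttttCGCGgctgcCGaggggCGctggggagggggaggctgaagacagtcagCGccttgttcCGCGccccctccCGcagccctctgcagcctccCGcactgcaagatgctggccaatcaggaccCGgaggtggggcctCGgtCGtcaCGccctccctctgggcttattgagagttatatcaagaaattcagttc

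The Pcdh20 sequence held 3 CG dinucleotides and 42.4% G and C, and the Pcdh9 sequence 18 and 63.6%. The median over 32851 RefSeq promoters cut to the same length was 6 CG dinucleotides and 52.4%. Neither sequence held any of 4 motifs searched on both strands. The GC box, GGGCGG, was found in 32.7% of all promoters of this length, and the E-box, CANNTG, in 66.2%. The TATA motif, TATAAA, was found in 12.4%, and the Egr motif, GCGNGGGCG, which can overlap a GC box, in 4.7%. The absence says only that these letters are not in this window.

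Among the other protocadherins outside the clusters, Pcdh15 and Pcdh12 also kept the groups apart. Pcdh15, known from the tip links of sensory hair cells, was at 12.8, 13.9 and 14.7 CPM in mutant-labelled libraries 1 to 3 and at 15.9, 18.3 and 18.2 CPM in wild type. Its log2 fold change was -0.34 (SE 0.10), with an edgeR adjusted p of 0.482, or 0.0534 with the block. Pcdh15 passed with the block only when pair 2 was left out, a fit that called 755 of 14628 genes lower. Pcdh15 spans 73099342 to 74649737 of chromosome 10. Pcdh12, a protocadherin of vascular endothelium, was at 6.22, 6.75 and 5.14 CPM against 4.93, 5.12 and 4.57 CPM, 0.31 on the log2 scale (SE 0.16, edgeR adjusted p = 0.767, blocked 0.246). The 9 endothelial markers beside it summed to 240, 227 and 203 CPM in mutant-labelled and 254, 230 and 203 CPM in wild-type libraries, and 2 of the 9 had a positive log2 fold change.

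**Figure D2:**
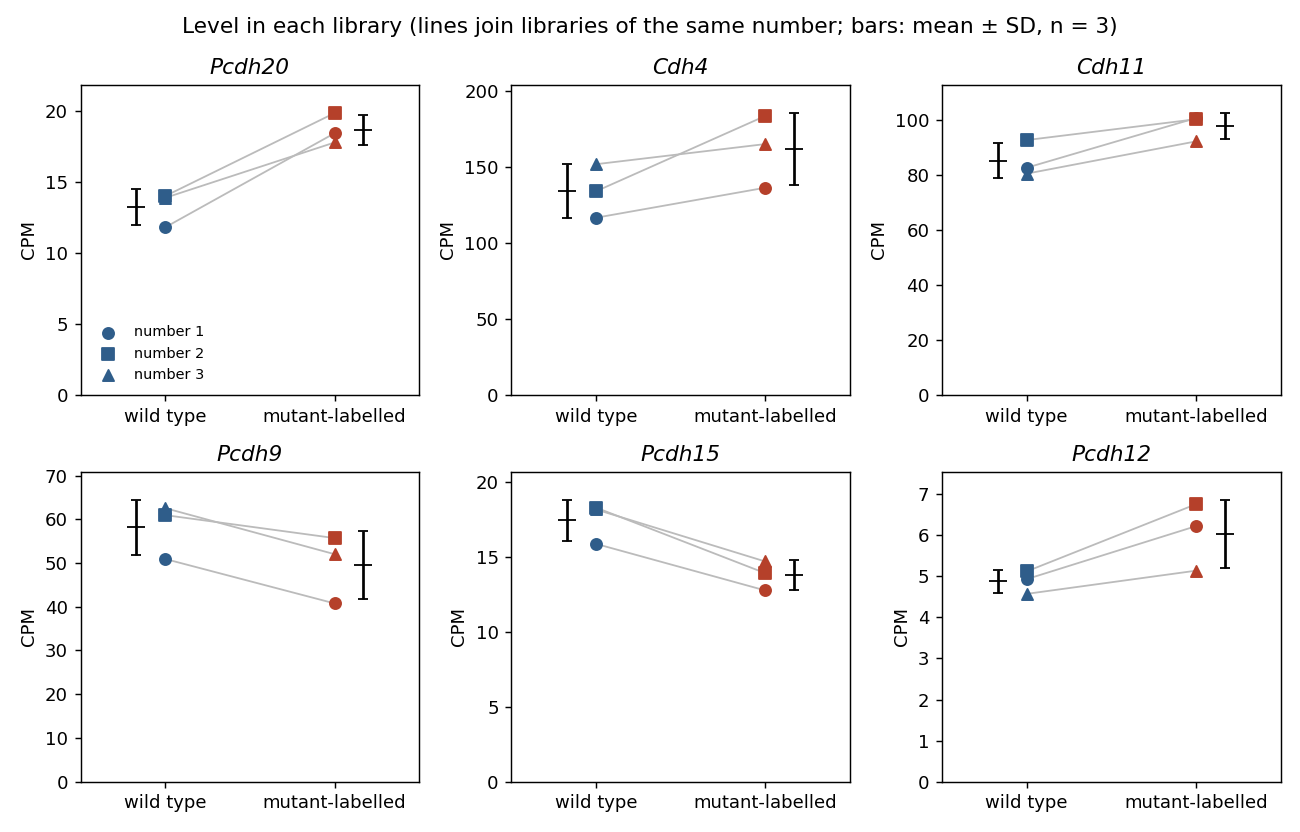
CPM of 6 members in each library, with lines joining libraries of the same number and bars giving mean ± SD (n = 3). The groups are apart for Pcdh20, Pcdh15 and Pcdh12 and overlap for Cdh4, Cdh11 and Pcdh9, whose 3 lines each slope the same way.

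The remaining 8 protocadherins outside the clusters did not pass in either fit, and their groups overlapped. Pcdh8, also called Arcadlin and known to be induced by neuronal activity, was the highest of the 12 per length at 23.8 RPKM, CPM per kilobase of exon not shared with another member. Its log2 fold change was 0.12 (SE 0.08). Pcdh9 followed at 7.93 RPKM, Pcdh10 at 7.7 and Pcdh19 at 7.07, and the ranges of these 3 over the 6 libraries, 6.01 to 9.22, 7.07 to 8.1 and 6.1 to 8.01 RPKM, overlapped. Pcdh10, which recruits actin regulators to growing axons, had a log2 fold change of -0.05 (95% interval -0.21 to 0.10). Pcdh19, the gene of an X-linked epilepsy, was level at 74.0 ± 8.77 and 74.0 ± 8.76 CPM, with an interval of -0.26 to 0.26. Pcdh7 and Pcdh17 had log2 fold changes of -0.05 and -0.08. Pcdh18 had -0.12 and the X-linked Pcdh11x -0.23 (SE 0.23). For 7 of the 12 genes, each mutant-labelled library was below the wild-type library of its number, beside 19.8% of all genes. For 3, Pcdh8, Pcdh12 and Pcdh20, each was above it, beside 19.3%. All 12 genes were read from the same libraries, so these counts are a description.

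The numbered cadherins include the classical type I and type II genes and a few of other build. Of 23, 21 were tested, and 2, or 9.52%, rose with the block, beside 1.97% of all genes. Among type I genes, Cdh4, or R-cadherin, which is expressed in subsets of cortical neurons, was at 136, 184 and 165 CPM in mutant-labelled libraries 1 to 3 and at 117, 134 and 152 CPM in wild type. The groups overlapped, but each mutant-labelled library was above the wild-type library of its number. The log2 fold change was 0.27 (SE 0.13, edgeR adjusted p = 0.754), and 0.27 with the block (SE 0.06, adjusted p = 0.0292). Cdh4 lies on chromosome 2 from 179442431 to 179899373.

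Cdh2, or N-cadherin, which holds the junctions of radial glia and is found at synapses, was the highest of all members per length at 51.6 RPKM. Its level was 389, 416 and 410 CPM in mutant-labelled libraries and 414, 426 and 444 CPM in wild type, with 1 mutant-labelled library above the lowest wild-type one. The log2 fold change was -0.08 (SE 0.05, 95% interval -0.21 to 0.05), with an edgeR adjusted p of 0.843, or 0.356 with the block. Among the numbered cadherins Cdh4 followed at 20.4 RPKM, with 16.1 to 25.3 RPKM over the libraries. Cdh24, Cdh8, Cdh13 and Cdh11 came next at 12.5, 11.9, 10.8 and 10.3 RPKM, with overlapping ranges over the libraries.

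Cdh11, a type II cadherin of neurons and mesenchyme, was at 100.5, 100.1 and 92.1 CPM in mutant-labelled libraries and at 82.5, 92.5 and 80.3 CPM in wild type. Mutant-labelled library 3 lay just below wild-type library 2, and the groups otherwise separated. Its log2 fold change was 0.20 (SE 0.07, edgeR adjusted p = 0.61), and 0.20 with the block (SE 0.05, adjusted p = 0.0362). Cdh11 spans 102632095 to 102785642 of chromosome 8. Cdh11 is also known from meningeal cells. The meninges markers given above had a median log2 fold change of -0.51 (median SE 0.79), with 9 of 9 negative and none past the threshold. Their sum did not keep 1 direction, with mutant-labelled to wild-type ratios of 0.803, 0.432 and 1.26 in pairs 1, 2 and 3. Whether meningeal tissue has a part in the Cdh11 values was not tested.

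Of the other numbered cadherins named here, none passed in either fit. Cdh8, which marks subsets of cortical projection neurons, had a log2 fold change of -0.07 (95% interval -0.21 to 0.06), and Cdh10 had 0.02 (interval -0.17 to 0.21). Cdh9, which guides synapse choice in hippocampus, was at 11.9 ± 1.11 CPM against 12.4 ± 1.99 CPM. Cdh12 and Cdh22 had log2 fold changes of -0.06 and -0.07 with SEs of 0.18 and 0.21, so that for both genes a change of 0.3 in either direction lay within the interval. Cdh13, or T-cadherin, which is anchored in the membrane by a lipid and has no catenin-binding tail, had 0.07 (SE 0.06). Cdh7, Cdh18 and Cdh20, further type II genes, had 0.21, -0.17 and -0.12 with SEs of 0.13, 0.18 and 0.12. Cdh23, the partner of Pcdh15 in hair cells, was at 0.471, 1.17 and 1.56 CPM in mutant-labelled libraries and at 1.56, 1.74 and 1.63 CPM in wild type. These groups did not overlap, although their nearest libraries round to the same value, and the log2 fold change was -0.63 (SE 0.38, edgeR adjusted p = 0.814).

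Several cadherins differed more between library numbers than between genotypes. Both number 1 libraries lay above the other 4 in 4 of the 21 tested cadherins, beside 12.4% of all genes, and both number 2 libraries in 3, beside 15.2%, so the second count is near the background. Cdh6, a cadherin with sharp regional borders in cortex, was at 8.71 and 7.53 CPM in the number 2 libraries of mutant-labelled and wild-type tissue and between 0.895 and 2.29 CPM in the other 4. Its unpaired log2 fold change therefore had an SE of 0.97, and its value ran from -1.53 without mutant-labelled library 2 to 0.96 without wild-type library 2. Cdh1, or E-cadherin, known from epithelia and meninges, was at 3.25, 0.876 and 0.705 CPM in mutant-labelled libraries 1 to 3 and at 4.36, 3.19 and 0.218 CPM in wild type. Cdh1 was thus high in both libraries numbered 1 and low in both numbered 3, as were the meninges markers. Cdh3, or P-cadherin, was highest in both number 1 libraries, at 2.59 and 2.42 CPM. Cdh5, or VE-cadherin, of the vessel wall, was above the rest in the number 1 libraries, at 27.5 and 28.1 CPM, and below the rest in the number 3 libraries, at 15.6 and 16.0 CPM. Both number 3 libraries were the lowest in 3 of the 21 tested cadherins, Cdh1, Cdh5 and the intestinal Cdh17, beside 8.52% of all genes. The muscle cadherin Cdh15 was under 2.5 CPM in every library. Whether meningeal or choroid plexus tissue has a part in these values was not tested.

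**Figure D3:**
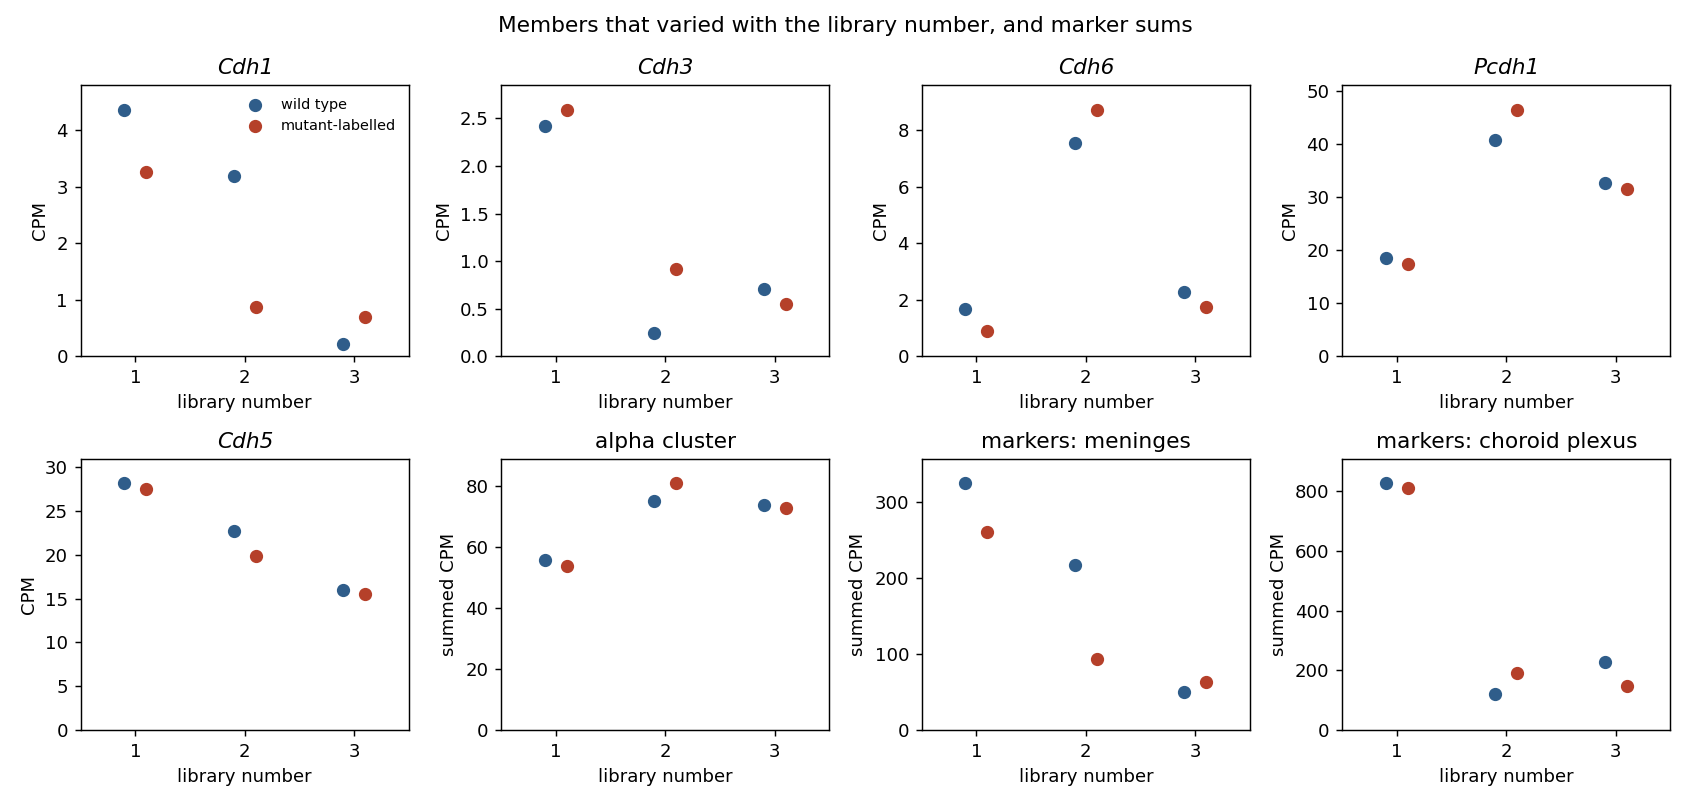
CPM of 5 members, summed CPM of the alpha cluster and summed CPM of meninges and choroid plexus markers, by library number. Cdh6 and Pcdh1 are highest in both number 2 libraries, Cdh1, Cdh3, Cdh5 and both marker sums are highest in both number 1 libraries, and the alpha cluster is lowest there.

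Pcdh1, a protocadherin outside the clusters that is known from airway epithelium and vessels, behaved like Cdh6. It was at 17.4, 46.6 and 31.5 CPM in mutant-labelled libraries and at 18.6, 40.8 and 32.8 CPM in wild type, so the libraries of 1 genotype differed more than the genotypes did. With the block its log2 fold change was 0.03 with an SE of 0.08, against an unpaired SE of 0.43.

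None of the 53 tested clustered protocadherins passed in either fit. The groups overlapped in 52 of them, where 13.5% of all genes had groups apart, and the exception was Pcdhga4, at 14.0, 13.8 and 12.9 CPM in mutant-labelled and 14.5, 14.4 and 16.6 CPM in wild-type libraries (-0.16 on the log2 scale, SE 0.10, edgeR adjusted p = 0.814). The median log2 fold change was 0.00 in the alpha, 0.01 in the beta and -0.03 in the gamma cluster. Alpha genes ranged from -0.22 to 0.21, beta genes from -0.23 to 0.35 and gamma genes from -0.20 to 0.17.

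Summed over its genes, the alpha cluster stood at 53.9, 81.0 and 72.9 CPM in mutant-labelled libraries 1 to 3 and at 55.8, 75.2 and 73.9 CPM in wild type. Both number 1 libraries were low and the genotypes overlapped. Within pairs the ratio of mutant-labelled to wild type was 0.965, 1.08 and 0.986. The beta sum was 145, 169 and 180 CPM against 136, 158 and 183 CPM, with pair ratios of 1.07, 1.07 and 0.984. The gamma sum was 374, 379 and 381 CPM against 383, 364 and 408 CPM, and its pair ratios were 0.978, 1.04 and 0.934. No cluster kept 1 direction over the 3 pairs.

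The library number showed in single genes of the alpha and beta clusters as well. Both number 1 libraries lay below the other 4 in 8 of 11 alpha genes, 11 of 21 beta genes and 2 of 21 gamma genes, and in 6 of the 12 protocadherins outside the clusters, beside 10.7% of all tested genes. Both number 3 libraries lay above the other 4 in 10 of 21 beta genes, beside 8.08% of all genes. Genes of 1 cluster share regulatory elements and libraries, so these counts are a description.

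**Figure D4:**
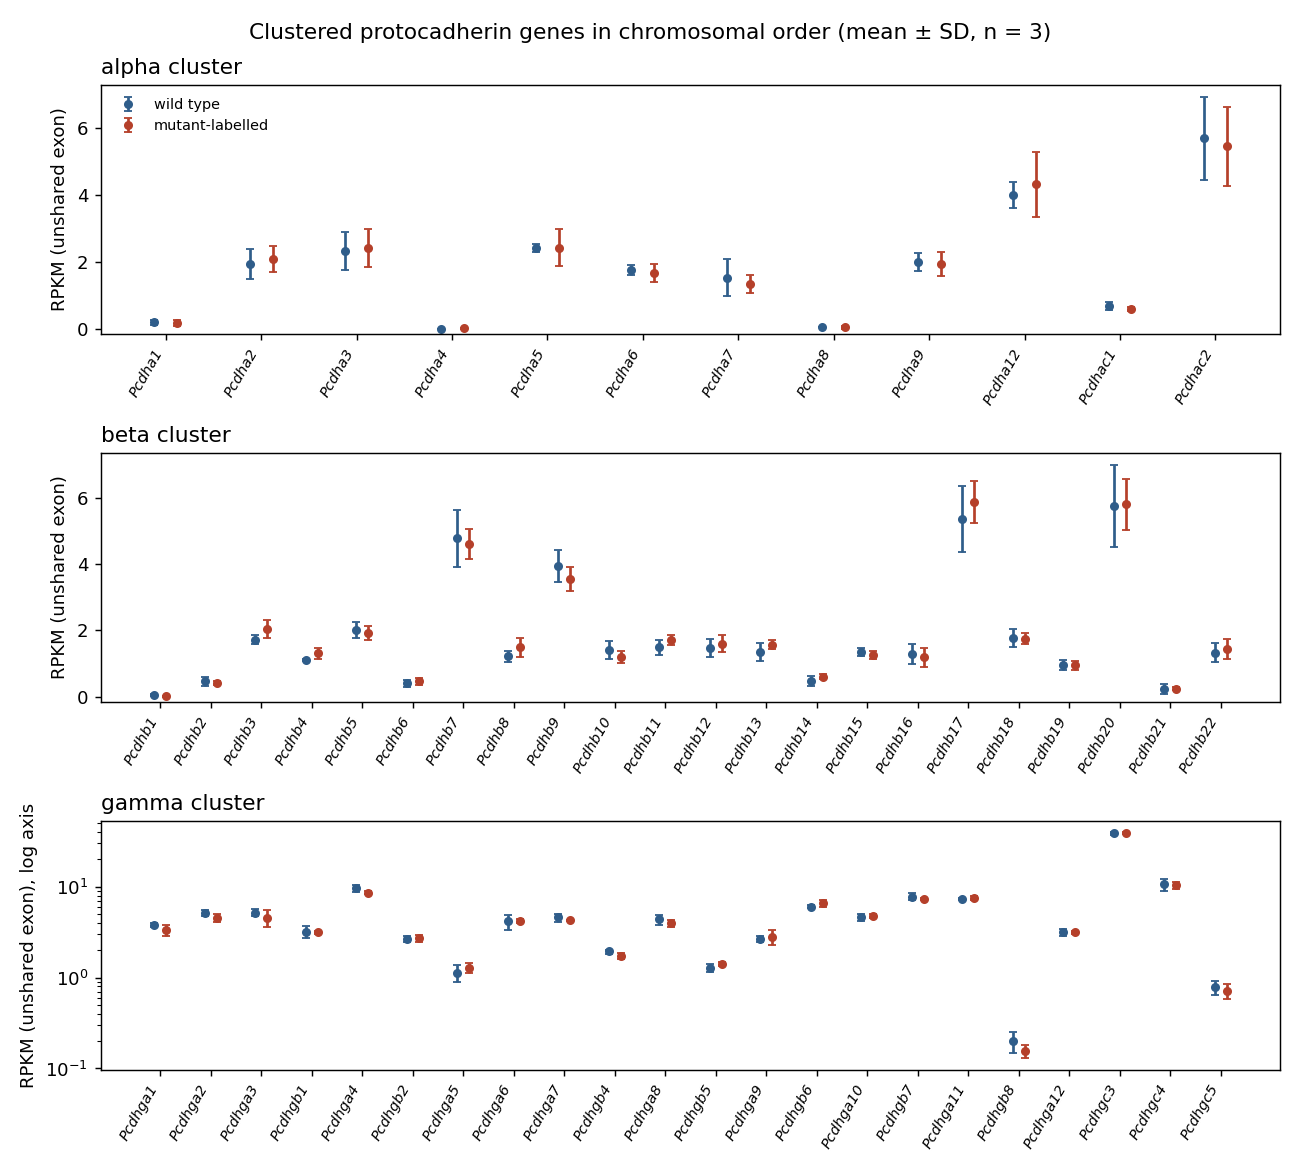
RPKM on unshared exon of clustered protocadherin genes in chromosomal order, mean ± SD of 3 libraries per genotype, with a log axis for the gamma cluster. Pcdhac2, Pcdhb17 and Pcdhb20, and Pcdhgc3 stand highest in their clusters.

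Levels along each cluster were uneven. In the alpha cluster Pcdhac2, a C-type isoform, a kind expressed less randomly than the alternate isoforms, was highest at 5.56 RPKM, followed by Pcdha12 at 4.14. The other C-type isoform, Pcdhac1, was at 0.628 RPKM. Pcdha5, Pcdha3 and Pcdha2 lay at 2.42, 2.36 and 2.01 RPKM with overlapping ranges. Pcdhac2 had a log2 fold change of -0.06 (95% interval -0.55 to 0.43), and Pcdha12 one of 0.12 (interval -0.30 to 0.53). Pcdha11, whose symbol stands for 2 genes in the annotation and so has no length here, had 0.21 (SE 0.28).

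Beta genes have a single exon and no shared constant part. Pcdhb20 and Pcdhb17 were highest at 5.78 and 5.62 RPKM with overlapping ranges, then Pcdhb7 at 4.69 and Pcdhb9 at 3.75, while the median of the cluster was 1.37 RPKM. Pcdhb17 was at 23.99, 28.3 and 29.8 CPM in mutant-labelled and 20.3, 25.1 and 29.6 CPM in wild-type libraries, a log2 fold change of 0.13 (SE 0.15). Pcdhb22 had 0.11 and Pcdhb18 had -0.02. Pcdhb14 had the largest value of the cluster, 0.35 (SE 0.24), at 4.71, 4.92 and 5.94 CPM in mutant-labelled and 2.70, 5.02 and 4.52 CPM in wild-type libraries, which overlapped. Pcdhb20 had 0.01 (SE 0.17), Pcdhb7 had -0.05 and Pcdhb9 had -0.15.

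In the gamma cluster Pcdhgc3, a C-type isoform, stood 9.28-fold above the cluster median at 38.8 RPKM, second only to Cdh2 among all members with a length. Its level was 135, 130 and 130 CPM in mutant-labelled and 133, 126 and 133 CPM in wild-type libraries. The log2 fold change of 0.01 had an SE of 0.05 and a 95% interval of -0.11 to 0.13, the narrowest among members. Pcdhgc4, the isoform required for survival of many interneurons, was second at 10.5 RPKM, with a log2 fold change of -0.03 (95% interval -0.31 to 0.24). Pcdhgc5, an isoform that appears mainly after birth, was at 0.749 RPKM with a log2 fold change of -0.13 (SE 0.21). Pcdhga4 followed Pcdhgc4 at 9.15 RPKM. Pcdhgb7, Pcdhga11 and Pcdhgb6 came next at 7.6, 7.42 and 6.34 RPKM, with log2 fold changes of -0.07, 0.03 and 0.12. By CPM, Pcdhga4 was lower than these, at a mean of 14.4 against 19.7, 19.6 and 16.3. Its place per length rests on a short unshared exon length, 1.570 kb against 2.594, 2.637 and 2.565 kb. The annotation used for counting was not found, so this place is uncertain. The remaining tested gamma genes lay between 1.21 RPKM for Pcdhga5 and 4.87 RPKM for Pcdhga3. For 18 of 21 tested gamma genes the 95% interval lay within 0.5 of zero, against 3 of 11 alpha and 8 of 21 beta genes.

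Partners of the family were followed in 5 lists with 59 tested genes, none of which passed in edgeR's unpaired fit, while DESeq2 called 1, Ptk2b. With the block, 3 passed, beside 3.46% of all genes. Ptk2b, which encodes the kinase Pyk2 that binds the cytoplasmic tails of alpha and gamma protocadherins, fell. It was at 38.9, 39.1 and 38.7 CPM in mutant-labelled libraries and at 53.7, 50.3 and 58.4 CPM in wild type, with no overlap. Its log2 fold change was -0.48 (SE 0.07, edgeR adjusted p = 0.101) and -0.47 with the block (SE 0.06, adjusted p = 0.000708). DESeq2 gave an adjusted p of 0.000211, and edgeR's unpaired test gave 0.0367 without wild-type library 2. In the same list of 13 WAVE complex and kinase genes 1 fell and none rose, with a median of -0.06, and the most abundant, Rac1 and Fyn, had -0.06 and -0.14.

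Among 15 tested atypical cadherins, Fat4, a giant cadherin that acts in cortical progenitors and planar polarity, rose by 0.20 with the block (SE 0.04, edgeR adjusted p = 0.0118). Clstn2, a calsyntenin of synapses, fell by 0.21 with the block (SE 0.04, adjusted p = 0.0191). Both missed the threshold without pairing, at 0.751 and 0.465. With the block, Ptk2b, Fat4 and Clstn2 lost the call without pair 3, and Clstn2 also without pair 1. Over all genes, those fits called 35 higher and 27 lower without pair 3, and 141 and 154 without pair 1. Without pair 2, the fit with the block called 11 of the genes named by the rule, members and partners together. Over all genes it called 1119 higher and 755 lower. The most abundant members of this list, Clstn1 and Celsr3, had log2 fold changes of -0.03 and -0.03, and the list median was -0.01. With all pairs, none of 10 tested catenins and adaptors passed, and their median was -0.03. Ctnnb1, or beta-catenin, had -0.04 (SE 0.05), and Ctnna2, the neuronal alpha-catenin, had -0.12 (SE 0.05). None of the 13 regulators of clustered protocadherin promoters passed with all pairs, and Rad21 and Smc1a, both cohesin subunits, had -0.09 and -0.03. None of 8 proteases that cut cadherins passed with all pairs, and Adam10 had -0.05 and Aph1a -0.08.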

How the data were processed

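RNA was measured in 6 neocortex libraries, 3 per genotype, made with a stranded kit, per the labels' protocols. The values the authors deposited are raw counts of reads per gene symbol. Build mm10 and the tools TopHat2 2.0.9, Bowtie2 2.1.0, HTSeq 0.5.3p9 and CASAVA 1.8.2 come from the submitters' processing notes. Settings and annotation were not found there, so overlapping and near-identical members are uncertain. All rows name a gene, and 0 columns were left unused.

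The main test of the counts was the quasi-likelihood test of edgeR 4.0.16 (R 4.3.3, TMM, default filter, robust, two-sided, Benjamini-Hochberg over 14618 genes, threshold 0.05), and DESeq2 1.42.0 was an alternative. The code was checked on simulated data. Same-numbered libraries correlated at 0.64, 0.57 and 0.52 in their deviations from group means (log2 CPM with 0.5 added) and the others at -0.53 to -0.09. Deviations within a group sum to zero, so the negative values largely follow from the positive ones and are no separate support for the pairing. All 3 same-numbered values passed the bound of 0.1, so a fit with the number as a block is given beside the unpaired one. The pairing comes from the data, since the labels give numbers only, and such correlations can arise by chance with 3 libraries. Chi-square per degree of freedom between libraries of a genotype was 7.13 to 23.1, and none was a copy. P-values of the unpaired fit reflect the spread between pools of a genotype. Those of the fit with the block reflect the spread left after differences between library numbers are removed.

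Lengths and positions are from GENCODE M21 on GRCm38, with 3 members unmatched. Named genes were members called in either fit or with groups apart, the 6 highest by CPM in each group, a fixed set of members with known roles, and partners that were called or among the 2 most abundant of their list. Tshz3, Cdh3, Cdh7, Cdh17, Cdh18, Cdh20, Cdh24, Pcdhb14, Pcdhga3 and Pcdhga5 were named outside this rule, after their values were seen. Members and lists were chosen with earlier results of these data known. No list was tested as a set.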

Additional observations from a re-analysis of the deposited data

How the results depend on the processing

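Alternatives were computed for the counts of called genes and for each gene named by the rule, not for the genes named outside it. No member was called with RLE size factors, without a filter, with a mean of at least 1 CPM, or without any 1 library in the unpaired fit (range 0 to 0). DESeq2 called 1 member higher and 1 partner gene lower. The replicate block called 3 members higher and 1 lower, and 1 partner higher and 2 lower. With the block and without pair 2 there were 4 members higher and 4 lower, and without pair 1 or pair 3 there were 0. Over all genes, the same fits called 1119 higher and 755 lower of 14628 without pair 2. They called 141 and 154 of 14547 without pair 1, and 35 and 27 of 14719 without pair 3. The partner called lower without wild-type library 2 was Ptk2b, so that count ranged from 0 to 1. Fewer samples were fitted in these cases, and otherwise the cause was not tested.

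The sign of some small differences turned. With RLE size factors the log2 fold change was 0.00063 for Cdh6. Without a filter the log2 fold change was 0.0062 for Cdh6 and 0.0061 for Pcdha5. With a mean of at least 1 CPM the log2 fold change was -0.00097 for Pcdh19. With DESeq2 the log2 fold change was 0.0021 for Pcdha5. With the replicate block and without pair 1 it was 0.11 for Cdh22, 0.034 for Cdh6, -0.027 for Pcdha3, 0.11 for Pcdha5, 0.019 for Pcdhgc4 and 0.011 for Clstn1. With the replicate block and without pair 2 it was -0.051 for Cdh10, 0.062 for Cdh15, -0.073 for Pcdh1, -0.077 for Pcdh19, -0.085 for Pcdha12, -0.043 for Pcdha3, -0.062 for Pcdhb20, -0.0084 for Pcdhga11, -0.0053 for Pcdhgc3 and 0.027 for Celsr3. With the replicate block and without pair 3 it was 0.18 for Cdh12, 0.0077 for Pcdha5, 0.054 for Pcdhb18, 0.040 for Pcdhb7 and 0.022 for Pcdhgb7. Leaving out each library in turn gave -0.023 to 0.10 for Cdh10, -0.21 to 0.083 for Cdh12, -0.61 to 0.0063 for Cdh15, -0.26 to 0.049 for Cdh22, -0.33 to 0.11 for Cdh5, -1.53 to 0.96 for Cdh6, -0.19 to 0.023 for Cdh9, -0.19 to 0.19 for Celsr3 and -0.087 to 0.0047 for Clstn1. The same gave -0.33 to 0.35 for Pcdh1, -0.20 to 0.041 for Pcdh17, -0.067 to 0.098 for Pcdh19, -0.15 to 0.081 for Pcdh7, -0.039 to 0.28 for Pcdha12, -0.060 to 0.28 for Pcdha2, -0.16 to 0.17 for Pcdha3, -0.18 to 0.15 for Pcdha5 and -0.22 to 0.11 for Pcdhac2. It also gave -0.00087 to 0.27 for Pcdhb17, -0.14 to 0.056 for Pcdhb18, -0.11 to 0.20 for Pcdhb20, -0.053 to 0.28 for Pcdhb22, -0.14 to 0.10 for Pcdhb7, -0.12 to 0.0016 for Pcdhgb7, -0.015 to 0.025 for Pcdhgc3, -0.14 to 0.066 for Pcdhgc4 and -0.26 to 0.0075 for Pcdhgc5. None of these genes passed a test.

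With 3 pools per genotype, the unpaired fit had 4 residual degrees of freedom, and low genes had wide intervals. Scaling moved the median of all genes by less than 0.01 on the log2 scale.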
